A study of Mus musculus with 28 samples.

Results

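The genes described here are 127 cell cycle and mitosis genes measured in MC38, a line of colon adenocarcinoma cells from C57BL/6 mice. They were chosen by name: the replicative helicase subunits Mcm2 to Mcm7, cyclins of the A, B, D and E families, numbered cyclin-dependent kinases (Cdk), and names that begin with Cdc, Aurk, Plk, Bub, Kif, Cenp or E2f, together with Mki67, Top2a and Pcna. All 127 occur among the 12274 genes that 2 expression tables share, and all passed the filter on low values in both. A name is not a function. The set also holds 9 genes of Cdc42 and its effectors, 14 Kif names outside the mitotic kinesins and 13 Cdks outside the core cycle. A further 7 are other Cdc or Aurk names such as Cdc37, an Hsp90 co-chaperone. The rule reads names only and uses no measured value, but it was set with earlier results of these data known.

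The cell cycle is driven by cyclins that bind and activate Cdks. D-type cyclins with Cdk4 and Cdk6, then cyclin E with Cdk2, free the E2F transcription factors from the retinoblastoma family, and E2F targets such as the Mcm genes and Pcna copy the DNA. Cyclin A and cyclin B with Cdk1 then take the cell into mitosis, in which Aurora and Polo-like kinases, kinesin motors and the centromere proteins (Cenp) build and use the spindle, until Cdc20 and the anaphase-promoting complex (APC/C) end it. Interferon gamma (IFNG) and tumour necrosis factor (TNF), which activated CD8 T cells release, are known to slow the division of many tumour lines.

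RNA was measured in MC38 cells with a library kit that counts the 3′ ends of messages. The in vitro table has 10 libraries in pairs: untreated cells, TNF, IFNG, both cytokines together, and the supernatant of a co-culture. In the other table, 9 libraries form 3 groups of 3. The first is MC38 alone, the second is a co-culture with OT1 T cells under an isotype antibody, and the last is the same co-culture under anti-PD1, which blocks the inhibitory receptor PD1. OT1 cells are CD8 T cells whose transgenic receptor sees an ovalbumin peptide. How the tumour cells were parted from the T cells is not stated. All groups are this one line, grown in DMEM with serum. The cytokines and T cells acted for 6 h. No time is recorded for the supernatant. The labels do not tell whether replicate libraries stem from different cultures. The p-values thus reflect only how far these libraries lie apart, which may be technical.

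Values are the deposited log2 values, close to log2 CPM (counts scaled to a common library total), and the 2 tables were normalized apart, so levels are compared only within a table. A difference is written as a log2 change with its standard error (SE) from limma, and a gene was called changed when its Benjamini-Hochberg adjusted p over all genes tested was under 0.05. Depth, read from the step size of low values, ranged in vitro from approximately 3290000 to 11200000 reads, and among co-culture libraries from 3660000 to 10900000. The shallowest libraries were the second TNF with IFNG library and the third library of MC38 alone.

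Some libraries need a word before the results. The third library of MC38 alone carries T cell RNA: the summed level of the 30 T cell markers measured, of 35 listed, was 151.3 CPM there, against 27.86 and 25.59 CPM in the first and second. The isotype co-cultures held 256.1 to 302.1 CPM and the anti-PD1 co-cultures 245.1 to 293.7 CPM. At or below 1 CPM were 29 and 28 of the 30 markers in the first and second libraries of MC38 alone and 2 of 30 in the third, where Cd8a stood at 1.75, Cd3d at 2.19 and Gzma at 3.78 on the log2 scale. Irf1, an early interferon target, was not raised in that library: it was at 7.99 there, 8.32 and 8.25 in the other libraries of MC38 alone, and 11.43 to 11.70 in the 6 co-cultures. Among the MC38 markers, Vim lay between 10.05 and 10.44 in all 9 libraries, whereas the epithelial markers Krt8, Krt18, Krt19 and Epcam were near or below 1 CPM in most, the highest value being 2.36 for Epcam in the first anti-PD1 library. Of the 6 tumour cell markers tested, all 6 had changes below 0 with isotype (median -0.267, none called), and 5 of 6 with anti-PD1 (median -0.503), where the basement membrane collagens Col4a1 and Col4a2 fell by 0.59 and 0.66. The part of this in the results below was not tested. For the third library of the anti-PD1 group, the title and treatment field say untreated, while the description names the anti-PD1 co-culture. Its Irf1, 11.55, lies with the co-cultures, and it was grouped by its description. The second isotype column is headed with OT2 in place of OT1. In the in vitro table, 5 of the 35 T cell markers were measured, with sums of 4.765 to 23.96 CPM. T cells divide and express the genes described here, and in a bulk sample a change in the share of cells cannot be told apart from a change per cell.

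**Figure D1:**
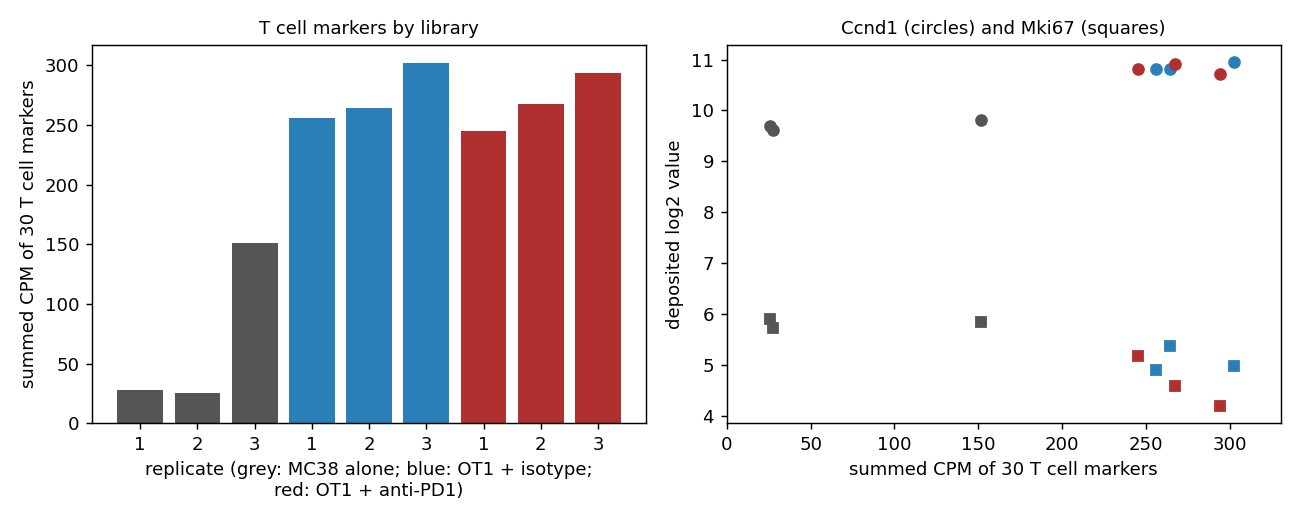
Left, summed level of 30 T cell markers (CPM) in each co-culture library. Right, the deposited log2 values of Ccnd1 (circles) and Mki67 (squares) in the same libraries against that sum. The third library of MC38 alone reaches 151.3 CPM of markers, and its Ccnd1 reads 9.81 and its Mki67 5.84. The part of T cell RNA was not tested.

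In the isotype co-culture with OT1 T cells, 14 of the 127 genes (11%) were called changed against MC38 alone, 7 upward and 7 downward. Over all 12707 genes tested, 13.9% were called, 7.64% higher and 6.22% lower, so the share among the cell cycle genes (5.51% in each direction) was no greater than the background. The genes that rose were the G1 cyclins Ccnd1, Ccnd2 and Ccne1, the kinase Cdk6, the Polo-like kinases Plk2 and Plk3, and Cdc42se2, a small binding partner of Cdc42. Other genes of the entry into the cycle, Ccnd3, Ccne2, Cdk4, Cdk2 and the 8 E2F genes, were not called. The genes that fell were the centromere genes Cenpa, Cenpf and Cenpk, the kinesins Kif11, Kif15 and Kif21a and the kinase Cdk20. With anti-PD1, 25 were called (19.7%), 9 higher and 16 lower, against 16.1% of all genes, 8.42% higher and 7.71% lower. The share of the 127 that fell there was 12.6%, and the share that rose was 7.09%. The median log2 change of the 127 was -0.115 with isotype and -0.0951 with anti-PD1, beside -0.0558 and -0.0589 over all genes tested. Both comparisons use the same 3 libraries of MC38 alone.

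RefSeq gives a promoter window, 250 bases before to 50 after the gene start (GRCm38.p6), for 107 of the 127 genes. They are shown for genes that moved together, because late cell cycle genes are known to share the cell cycle homology region, searched here as TTTGAA or TTTAAA, often beside a CCAAT box. Both were searched on both strands over the whole 300-base window. TTTAAA can also be part of a TATA box. The 150 bases before the start follow for Mki67, Top2a and Kif11, which fell with anti-PD1, and Plk2 and Plk3, which rose, 5′ to 3′ on the strand of the gene, with these motifs and the E2F site named after them in capitals (TTCAAA and ATTGG are the reverse strand).
Mki67, chr7:135716380-135716529, minus strand: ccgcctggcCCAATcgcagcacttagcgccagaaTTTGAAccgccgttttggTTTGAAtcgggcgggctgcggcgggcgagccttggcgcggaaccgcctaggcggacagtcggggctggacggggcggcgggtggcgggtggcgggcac
Top2a, chr11:99024190-99024339, minus strand: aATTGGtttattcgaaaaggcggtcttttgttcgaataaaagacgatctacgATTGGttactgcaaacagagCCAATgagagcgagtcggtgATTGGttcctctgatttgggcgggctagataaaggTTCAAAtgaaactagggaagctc
Kif11, chr19:37376232-37376381, plus strand: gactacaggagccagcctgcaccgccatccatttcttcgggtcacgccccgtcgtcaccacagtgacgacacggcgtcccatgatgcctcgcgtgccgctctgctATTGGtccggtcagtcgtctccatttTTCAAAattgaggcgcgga
Plk2, chr13:110394894-110395043, plus strand: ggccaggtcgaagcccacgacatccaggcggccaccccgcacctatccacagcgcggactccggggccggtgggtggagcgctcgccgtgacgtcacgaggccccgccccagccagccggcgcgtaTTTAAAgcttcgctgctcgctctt
Plk3, chr4:117133964-117134113, minus strand: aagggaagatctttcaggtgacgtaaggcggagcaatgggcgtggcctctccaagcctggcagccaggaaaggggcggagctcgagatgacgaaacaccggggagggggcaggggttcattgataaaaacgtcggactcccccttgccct
Mki67 has TTTGAA at 116 and 98 bases before the start, Top2a and Kif11 have it on the reverse strand at 23 and 19 bases, and each has at least 1 CCAAT box. Plk2 has TTTAAA at 24 bases, and Plk3 has neither motif in the window. Of the 18 genes that fell in a co-culture, 17 had a window, and 10 of these (58.8%) held the homology region and 13 (76.5%) a CCAAT box. Of the 9 that rose, 7 had a window, with 2 (28.6%) and 1 (14.3%). All members with a window gave 43% and 57.9%, and all 27025 genes listed by RefSeq gave 30.6% and 41.1%. Of the 13 genes that fell with both cytokines in vitro, 12 had a window, with 25% and 58.3%. An E2F site (TTTCCCGC, TTTCGCGC, TTTGCCGC or TTTGGCGC) was in 3 of the 17, none of the 7, 17 of the 107 (15.9%) and 2.6% of all genes. These are matches of letters in a window and show no binding.

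Ccnd1 encodes cyclin D1, the cyclin that most often links growth signals to Cdk4 and Cdk6 (chr7:144929931-144939925 in GRCm38, minus strand). Its log2 value was 9.61, 9.69 and 9.81 in MC38 alone, 10.81, 10.82 and 10.96 with isotype, and 10.82, 10.92 and 10.71 with anti-PD1. The co-culture libraries all lie above every library of MC38 alone. Ccnd1 rose by 1.16 (SE 0.10, adjusted p = 4.99e-05), or 2.23-fold, with isotype and by 1.11 (SE 0.10, adjusted p = 6.77e-05) with anti-PD1. Cdk6 (chr5:3341485-3531008, plus strand), a kinase partner of D-type cyclins, read 4.39, 4.82 and 4.06 in MC38 alone, 5.69, 5.63 and 5.62 with isotype and 5.65, 5.70 and 5.26 with anti-PD1. Its rise was 1.22 (SE 0.19, adjusted p = 0.00213) and 1.11 (SE 0.19, adjusted p = 0.00361), again without overlap of the groups. The other kinase partner, Cdk4, was not called, with changes of -0.02 and -0.07.

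Ccnd2, a second D-type cyclin, rose less, by 0.51 (adjusted p = 0.00927) and 0.46 (adjusted p = 0.0152). Its values were 9.01, 9.02 and 8.87 in MC38 alone, 9.34, 9.51 and 9.58 with isotype, and 9.46, 9.50 and 9.31 with anti-PD1, so the groups do not overlap. Ccnd3 was not called in either co-culture. Ccne1 (chr7:38097984-38107534, minus strand) encodes cyclin E1, the partner of Cdk2 at the start of replication. It read 4.48, 4.34 and 3.15 in MC38 alone and 5.15 to 5.39 in the 6 co-culture libraries. The third library of MC38 alone is low, and without it the rise of Ccne1 went from 1.33 to 0.92 with isotype (adjusted p = 0.000662) and from 1.25 to 0.83 with anti-PD1 (adjusted p = 0.00118). Ccne2, the sister gene, was not called, nor were Ccna2, Ccnb1 and Ccnb2.

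Plk2 and Plk3 are Polo-like kinases that answer stress and growth signals, unlike Plk1, which drives mitosis. Plk2 (chr13:110395046-110400844, plus strand) read 5.36, 4.95 and 5.14 in MC38 alone, 6.08, 6.08 and 6.16 with isotype, and 6.31, 6.27 and 6.68 with anti-PD1. It rose by 0.96 (SE 0.15, adjusted p = 0.00167) and 1.27 (SE 0.15, adjusted p = 0.000259). Plk3 rose from 2.73, 3.16 and 3.06 to 3.77, 3.88 and 3.97 with isotype (change 0.89, adjusted p = 0.00871) and to 3.78, 4.17 and 3.95 with anti-PD1 (change 0.98, adjusted p = 0.00481). The other members of the mitotic kinase group, Plk1, Plk4, Aurka, Aurkb, Bub1 and Bub1b, were not called in either co-culture, so 2 of 8 rose and none fell. Of all genes tested, 7.64% and 8.42% were called higher and 6.22% and 7.71% lower. Cdc42se2 rose by 1.08 and 1.20 (adjusted p = 0.000205 and 0.000106), while Cdc42 itself had changes of -0.20 and -0.05 that were not called.

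Some genes of the centromere fell. Cenpf (chr1:189640606-189688086, minus strand), a large kinetochore protein made in G2 and mitosis, read 6.57, 6.66 and 6.64 in MC38 alone, 5.92, 6.05 and 5.73 with isotype and 5.88, 5.81 and 5.31 with anti-PD1. It fell by 0.72 (SE 0.16, adjusted p = 0.0132) and 0.96 (SE 0.16, adjusted p = 0.00271). Cenpa, the histone that marks the centromere, read 7.21, 6.96 and 7.08 in MC38 alone and 6.42, 6.45 and 6.55 with isotype, a fall of 0.61 (SE 0.11, adjusted p = 0.00426). With anti-PD1 it lay in between, at 6.65, 6.82 and 6.87, and its change of -0.30 was not called (adjusted p = 0.0886). Of the 21 kinetochore genes, 3 fell with isotype (Cenpa, Cenpf and Cenpk, the last at -0.77) and 2 with anti-PD1 (Cenpf and Cenpc1, -0.73), and none rose. Of all genes tested, 6.22% were called lower with isotype and 7.71% with anti-PD1, and 7.64% and 8.42% higher. The call of Cenpc1 held under 3 of 17 alternatives.

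Kif11, the motor that separates the spindle poles, read 5.41, 5.56 and 5.97 in MC38 alone against 4.84 to 5.11 in the 6 co-culture libraries. Its falls were 0.70 (adjusted p = 0.0158) and 0.71 (adjusted p = 0.0145). Kif15, which works beside Kif11, fell by 0.76 and 0.81 (adjusted p = 0.038 and 0.0264). For both motors the third library of MC38 alone was the highest, and without it the changes of Kif11 were -0.54 and -0.55 and those of Kif15 -0.51 and -0.56, all still called. Kif20b and Kif14, which serve cytokinesis, fell with anti-PD1 by 0.92 and 0.58 (adjusted p = 0.0167 and 0.0497). None of these motors was called with anti-PD1 once the third anti-PD1 library, whose labels conflict, was left out. The adjusted p from limma was then 0.0548 for Kif11, 0.0813 for Kif15, 0.0565 for Kif20b and 0.134 for Kif14. Other anti-PD1 libraries mattered too. Kif11 was lost without the first (limma adjusted p = 0.057), and Kif15 without the first or the second (0.0818 and 0.0617). With the third libraries of anti-PD1 and of MC38 alone both left out, Kif11 was called (-0.51, limma adjusted p = 0.0439). The isotype call of Kif15 held under 7 of 17 alternatives, and the anti-PD1 call of Kif14 under 3 of 17. Of 11 mitotic kinesins, 2 fell with isotype and 4 with anti-PD1, none rose, and 10 and 9 of the 11 had changes below 0 (medians -0.381 and -0.539). Of all genes tested, 6.22% and 7.71% were called lower, and 45.1% and 45% had changes above 0.

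Mki67, the gene of the Ki-67 antigen that marks dividing cells (chr7:135689784-135716361, minus strand), read 5.73, 5.90 and 5.84 in MC38 alone, 4.91, 5.38 and 4.98 with isotype, and 5.18, 4.58 and 4.20 with anti-PD1. All 6 co-culture libraries lie below the controls. The fall with anti-PD1 was 1.17 (SE 0.23, adjusted p = 0.00698), or 2.25-fold. With isotype the change of -0.73 missed the threshold (adjusted p = 0.0617). Top2a, the topoisomerase that untangles replicated chromosomes, fell by 0.60 with anti-PD1 (adjusted p = 0.0196), and its isotype change of -0.30 was not called. Cdc20, the activator of the APC/C, fell with anti-PD1 by 0.52 (adjusted p = 0.0168), and so did the Cdk1-activating phosphatase Cdc25b, by 0.41 (adjusted p = 0.042). Of 17 alternatives, the call of Cdc20 held under 14 and that of Cdc25b under 7.

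The central drivers of mitosis were not among the calls. Cdk1 read 8.76, 8.61 and 9.04 in MC38 alone, 8.67, 8.42 and 8.76 with isotype and 8.51, 8.82 and 8.79 with anti-PD1, so the groups overlap. Plk1 read 7.63, 7.58 and 7.52 in MC38 alone and 7.47 to 8.00 in the co-cultures, again with overlap. Cyclin B1 (Ccnb1), the partner of Cdk1, read 5.78, 5.96 and 5.82 in MC38 alone and 5.54 to 5.73 in the co-cultures; its groups do not overlap, yet the changes of -0.20 and -0.22 missed the threshold (adjusted p = 0.254 and 0.194).

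Calls among the DNA copying genes of the name rule and among the remaining roles follow. The counts here are to be read against 13.9% of all genes called with isotype and 16.1% with anti-PD1. Of the 10 replication licensing and helicase genes, none was called with isotype and Mcm7 alone with anti-PD1, where it fell by 0.49 (adjusted p = 0.0216). Its values were 7.25, 7.31 and 7.36 in MC38 alone and 6.85, 6.84 and 6.75 with anti-PD1. The 8 E2F genes held 1 call, the repressor E2f7, which fell by 0.78 with anti-PD1 (adjusted p = 0.048). That call held under 4 of 17 alternatives. Among the other Cdks, Cdk20 was lower in both co-cultures (it fell by 1.00 and 1.09, adjusted p = 0.0215 and 0.0136), from 4.98, 4.81 and 3.94 in MC38 alone to 3.47 to 3.66 in the 6 co-culture libraries. Cdk9, which releases paused RNA polymerase, rose with anti-PD1 by 0.63 (adjusted p = 0.0183), and Cdc42se1 by 0.40 (adjusted p = 0.0336). Among the other Kif names, Kif21a fell in both (-0.95 and -0.74), and Kif1b fell with anti-PD1 by 0.59 (adjusted p = 0.0235). The call of Kif21a held under 16 of 17 alternatives with isotype and 4 of 17 with anti-PD1. Kif13b was called lower with anti-PD1 (-2.36, adjusted p = 0.0251) on very few reads, approximately 2 to 4 a library there and 8 to 14 in MC38 alone.

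**Figure D2:**
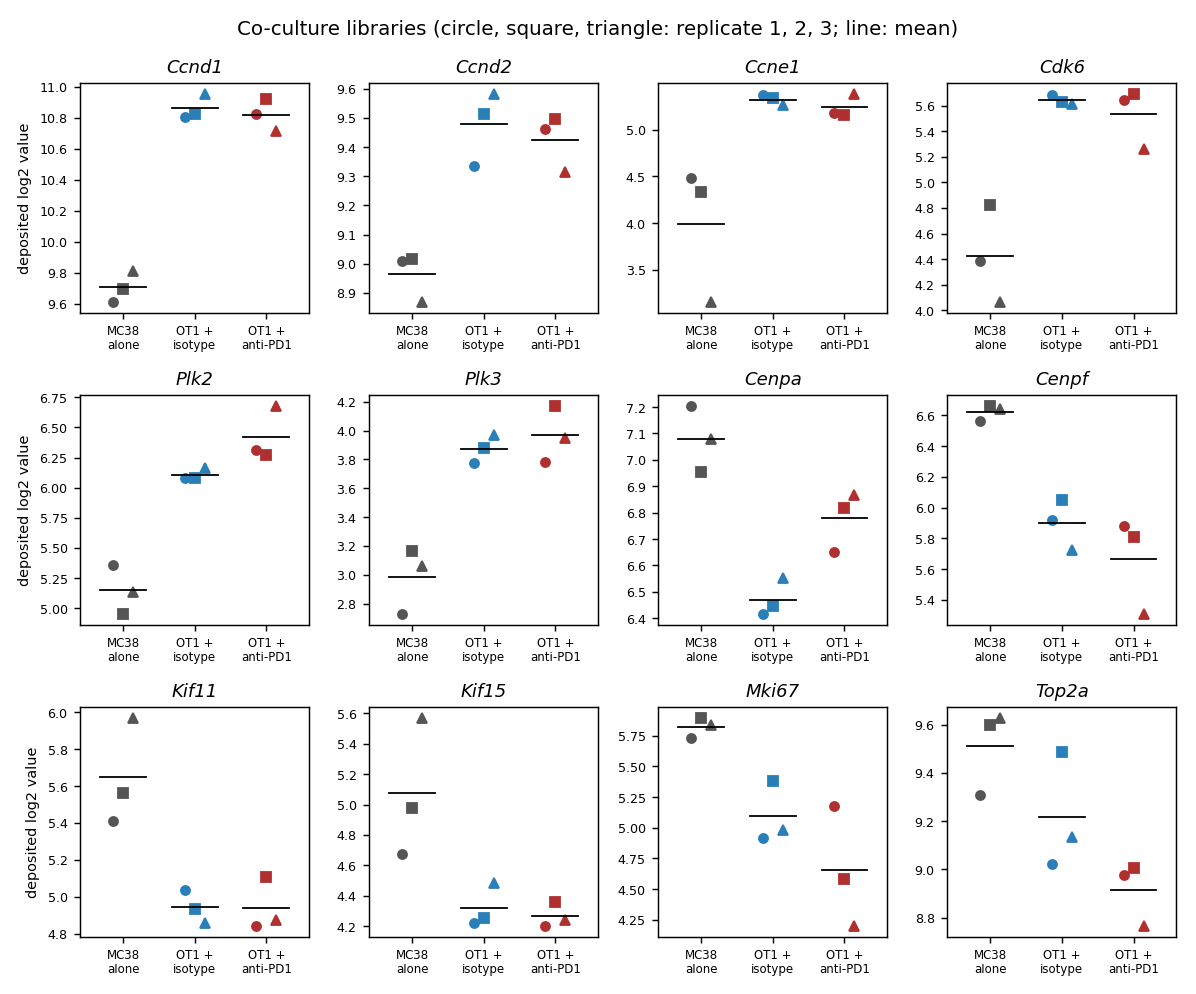
Deposited log2 values of 12 genes in the 9 co-culture libraries, by group, with the group mean as a line. The top 6 genes of the grid, Ccnd1 to Plk3, lie higher in all 6 co-culture libraries than in MC38 alone, and Cenpa to Top2a have lower means there, although for Top2a the second isotype library (9.49) lies among the controls (9.31 to 9.63).

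These calls differ in how far they rest on single libraries. The counts that follow are not set beside the share of all genes called under each setting, so they are not shown to be particular to these genes. With the third library of MC38 alone left out, 21 genes were called with isotype and 23 with anti-PD1. Without the third isotype library, 7 were called with isotype, and Ccnd2 and the falls of Cenpf, Kif11, Kif15, Kif21a, Cdk20 and Cenpk were lost. With 1 anti-PD1 library left out, 13 genes were called without the first, 15 without the second and 9 without the third. Leaving out both the third library of MC38 alone and the anti-PD1 library with conflicting labels gave 18 calls with isotype and 12 with anti-PD1. Under every alternative tried, the calls held for Ccnd1, Cdc42se2, Plk2, Plk3 and Cdk6 in both co-cultures, for Ccne1 and Cenpa with isotype, and for Cenpf, Mki67 and Cdk20 with anti-PD1. Without the third anti-PD1 library, the adjusted p of Kif11 was 0.0548, of Top2a 0.0786, of Cdc20 0.0584, of Ccne1 0.0643, of Cdk9 0.0733 and of Mcm7 0.0763 in that comparison. The same fit by limma gave E2f7 0.164, Cdc25b 0.111, Kif21a 0.102, Cdc42se1 0.0898 and Kif1b 0.0891.

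T cell RNA moved with the groups, and its part in these results was not tested. The third library of MC38 alone held 151.3 CPM of T cell markers, against 245.1 CPM or more in the co-cultures. It is 1 library of approximately 3660000 reads and cannot serve as a test, so its values are a description only. There Ccnd1 (9.81), Plk2 (5.14), Plk3 (3.06), Cdk6 (4.06) and Ccne1 (3.15) were below every co-culture library, and Cenpf (6.64), Kif11 (5.97) and Mki67 (5.84) above every one.

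The antibody made no difference that passed the threshold. Between the anti-PD1 and isotype co-cultures limma called none of the 127 genes and 0% of all genes, with 4 of the 127 at an unadjusted p under 0.05 and 347 of all 12707. The largest of the differences by p were Cenpa, 0.31 higher with anti-PD1 (95% interval 0.07 to 0.55), and Aurkb, 0.52 higher (0.11 to 0.93), both with an adjusted p of 1. For Mki67 the difference was -0.44 with SE 0.23, and for Ccnd1 it was -0.04 with SE 0.10. A change called with one antibody and missed with the other is therefore not shown to differ between them.

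Genes of the same processes that the name rule leaves out were counted from listed names. The shares to read these counts against are those of all genes, 7.64% higher and 6.22% lower with isotype, and 8.42% and 7.71% with anti-PD1, with medians of -0.0558 and -0.0589. Of 56 mitosis genes tested, 7 fell and none rose with isotype, and 9 fell and 1 rose with anti-PD1 (list medians -0.264 and -0.312). Cks2, a small Cdk-binding subunit, fell by 1.05 and 0.93 (adjusted p = 0.000382 and 0.00087), the condensin subunit Ncapd2 by 0.87 and 1.11, the Cenpa chaperone Hjurp by 0.71 and 0.84, and cyclin F (Ccnf) by 0.85 and 0.99. Anln, an organiser of the cytokinetic ring, fell by 0.89 and 0.88. Of 48 DNA replication genes, 2 rose and 4 fell with isotype and 3 rose and 7 fell with anti-PD1 (list medians -0.109 and -0.13). Among them the origin subunit Orc5 fell by 2.40 and 1.49, Gins3 by 0.62 and 0.72 and the licensing inhibitor Gmnn by 0.58 and 0.62, while Pola2 rose by 0.84 and 0.85.

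The list of brakes and regulators, 31 genes tested, held 6 that rose and 3 that fell with isotype, and 7 and 4 with anti-PD1, beside 7.64% and 8.42% of all genes called higher and 6.22% and 7.71% lower. Its median change was -0.0614 and -0.0293, and 17 of the 31 had changes below 0 in each co-culture. Cdkn1a, the Cdk inhibitor p21, rose by 1.04 (adjusted p = 0.000773) and 1.18 (adjusted p = 0.000344). Its values were 5.11, 5.23 and 5.51 in MC38 alone and 6.23 to 6.67 in the co-cultures. The antiproliferative gene Btg2 rose by 2.65 and 2.92, the stress gene Gadd45b by 1.95 in both, Mdm2 by 1.03 and 1.17, and the growth factor-induced Myc 2.40-fold and 3.26-fold. Cdkn1b, the inhibitor p27, fell by 1.12 and 1.00 (adjusted p = 0.0188 and 0.0286), and the checkpoint kinase Chek2 by 0.78 and 0.58.

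In vitro, the 2 cytokines together gave the only calls among the 127 genes. With TNF and IFNG, 13 fell and 2 rose (11.8%), against 9.02% of all 12720 genes, 4.25% lower and 4.77% higher. The share of the 127 that fell was 10.2%, and their median change was -0.103, beside 0.0165 for all genes. The fallers were replication genes (Pcna, Mcm2, Cdc7), the S phase cyclin Ccna2 and its partner Cdk2, the E2F factors E2f2 and E2f6, Cdk9, Cdc42 and Cdc42se1, the APC/C subunit Cdc27, the centromere gene Cenpi and the ciliary kinesin Kif7. Cdc37 and Cdk12, a kinase of transcript elongation, rose.

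Ccna2 (chr3:36564865-36572150, minus strand) read 6.21 and 6.14 untreated and 5.37 and 5.37 with both cytokines. Each single cytokine lay between, at 5.84 and 5.63 with TNF and 5.68 and 5.76 with IFNG, and supernatant gave 5.99 and 5.67. The fall with both was 0.81 (SE 0.15, adjusted p = 0.0238), or 1.75-fold. Cdk2 (chr10:128697939-128705031, minus strand) read 5.15 and 5.20 untreated, 4.99 and 4.36 with TNF, 3.79 and 4.32 with IFNG, 2.93 and 3.98 with both, and 4.90 and 3.78 with supernatant. It fell by 1.73 with both (SE 0.44, adjusted p = 0.0461). The libraries of each treated group of Cdk2 lie far apart, which shows in the SE.

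Pcna, the sliding clamp of DNA polymerase, read 6.40 and 6.61 untreated and 5.87 and 5.80 with both cytokines, a fall of 0.67 (SE 0.13, adjusted p = 0.0248). With TNF it read 6.10 and 6.16, with IFNG 6.19 and 6.13, and with supernatant 6.29 and 6.28. Mcm2 fell by 0.80 (adjusted p = 0.0462), from 6.58 and 6.95 to 5.85 and 6.09, and Cdc7, the kinase that fires origins, by 0.97 (adjusted p = 0.0302), from 4.17 and 4.29 to 3.11 and 3.41. These 3 are the only calls among the 10 replication licensing and helicase genes, beside 4.25% of all genes called lower and 4.77% higher. Mcm4 had a larger change, -1.57, but was not called (adjusted p = 0.123). Its libraries read 7.08 and 7.25 untreated, 4.99 and 6.20 with both cytokines, and 7.33 and 5.18 with supernatant.

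E2f2, an activator E2F, fell by 1.14 (adjusted p = 0.0238), from 3.11 and 3.39 to 2.18 and 2.04, on approximately 31 and 14 reads in the libraries given both cytokines. The repressor E2f6 fell by 0.79 (adjusted p = 0.0395). Cdk9 read 7.57 and 7.64 untreated and 6.35 and 6.86 with both, a fall of 1.00 (adjusted p = 0.0329), and Cdc27 fell by 0.82 (adjusted p = 0.0272). Cdc42 fell by 0.74 (adjusted p = 0.0302) and Cdc42se1 by 1.26 (adjusted p = 0.0163). Cenpi fell by 0.77 (adjusted p = 0.043) and Kif7 by 1.09 (adjusted p = 0.0395). Cdc37 rose by 0.68 (adjusted p = 0.0302), from 5.66 and 5.81 to 6.37 and 6.46, and Cdk12 by 0.70 (adjusted p = 0.0396).

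The markers of division were not called with the cytokines. Mki67 read 7.05 and 6.77 untreated and 7.44 and 7.52 with both, and its change of 0.57 was not called (adjusted p = 0.0614). Top2a had a change of 0.36 (adjusted p = 0.14). None of the 11 mitotic kinesins and none of the 8 mitotic kinases was called, beside 9.02% of all genes with both cytokines. Across the means of the 5 in vitro groups, the genes whose pattern was most like that of Mki67 were C1rl (Pearson r 0.9983), Gm23442 (0.9983), Csk (0.9982), Gm16550 (0.9979) and Srrt (0.9976). With 5 points, chosen as the best of a whole table, these are descriptions only.

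**Figure D3:**
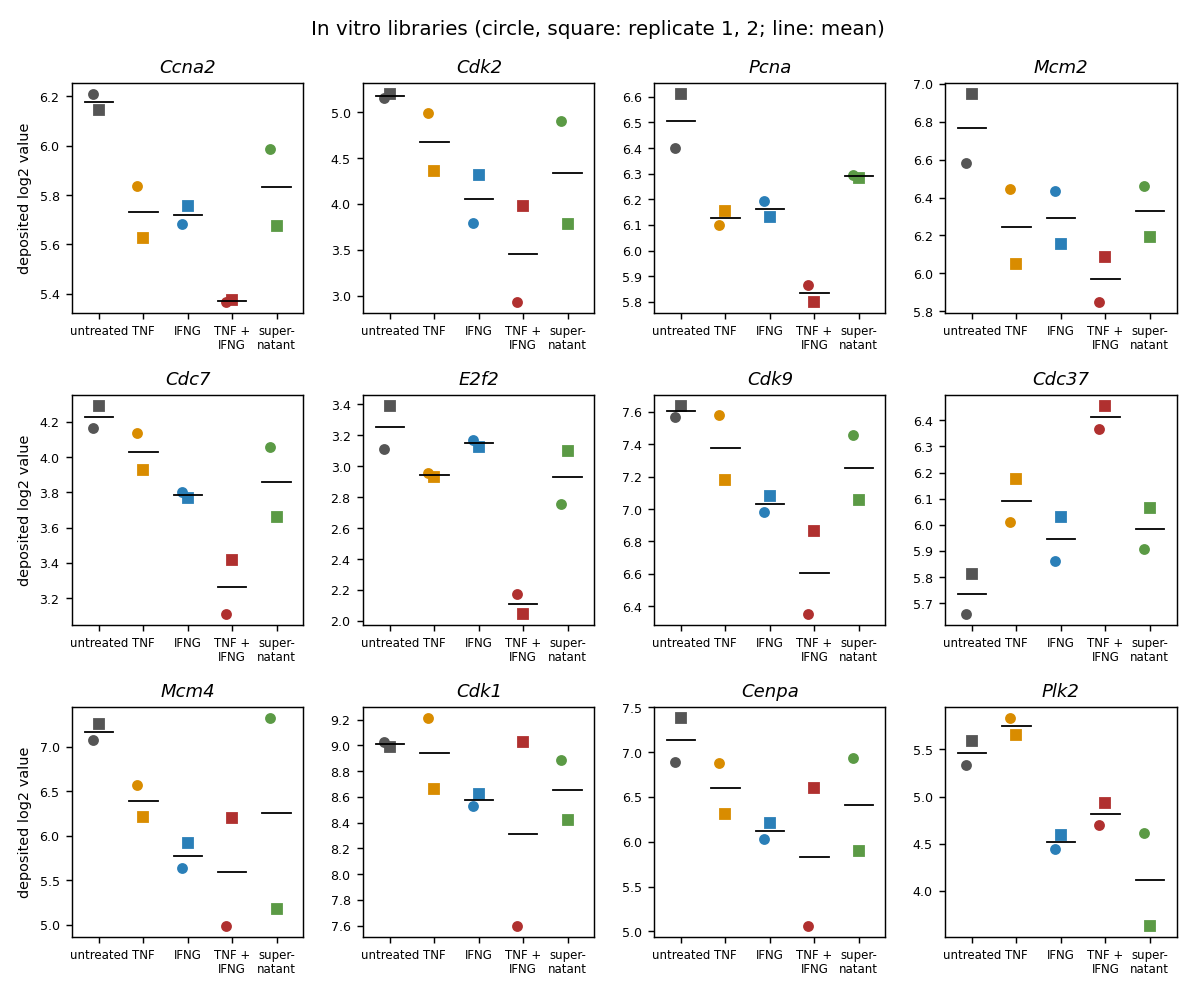
Deposited log2 values of 12 genes in the 10 in vitro libraries, by group, with the group mean as a line. The libraries with both cytokines are lowest for Ccna2 (5.37 and 5.37), Pcna, Cdc7 and E2f2, while the libraries of one group lie far apart for Mcm4, Cdk1 and Cenpa.

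All 15 calls with both cytokines rest on few libraries. The counts that follow are not set beside the share of all genes called under each setting. They describe the fit and are not shown to be particular to these genes. Without either untreated library none of the 127 was called. Without either IFNG library 1 was called, without the second library given both cytokines 3, without either TNF library 9, and without either supernatant library 29. The libraries with both cytokines and with supernatant lay further apart than the others: the median SD of the 127 genes was 0.217 and 0.221, against 0.149 in untreated cells, 0.153 with TNF and 0.0832 with IFNG. The SD between libraries exceeded 0.5 for 25 of the 127 genes with both cytokines and for 17 with supernatant, against 0 in untreated cells and 2 with IFNG. Cdk1, the mitotic kinase, read 7.59 and 9.02 in the libraries given both cytokines, and Cenpa 5.06 and 6.60.

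The single cytokines and the supernatant called none of the 127 genes. With TNF, 0.275% of all genes were called by limma, and 7 of the 127 and 797 of all genes had an unadjusted p under 0.05. With IFNG the background was 0.354%, with 17 of the 127 and 1361 of all genes at that p. Of the 17, 16 were lower, a split that was not counted for all genes. Over the whole set of 127, 63 were higher and 64 lower, with a median of -0.00509, beside 0.0446 for all genes. With supernatant the background was 0.448%, with 1 of the 127 and 652 of all genes at that p. That gene was Plk2, at 5.34 and 5.59 untreated and 4.61 and 3.63 with supernatant (change -1.34, SE 0.29, adjusted p = 0.181). The treatments did act on these cells: Irf1 read 7.04 and 7.07 untreated, 9.60 and 9.44 with TNF, 10.08 and 10.15 with IFNG, and 10.21 and 10.27 with supernatant. The NF-kB target Nfkbia reached 11.28 and 11.18 with TNF from 7.87 and 7.79. It read only 8.19 and 8.08 with supernatant, 7.73 and 7.63 with IFNG, and 11.01 and 10.69 with both cytokines.

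The direct contrasts between treatments called none either. Adding TNF to IFNG (background 0.236%) left 17 of the 127 and 1707 of all genes at an unadjusted p under 0.05, and adding IFNG to TNF (0.417%) left 26 and 2097. E2f2 had the lowest p when TNF was added to IFNG (-1.04, SE 0.22, adjusted p = 0.129). For Ccna2 the step was -0.35 when TNF was added and -0.36 when IFNG was added, each with SE 0.15. The test of departure from the sum of the single effects called 0.0157% of all genes and none of the 127, with 6 and 500 at an unadjusted p under 0.05, and for Ccna2 the departure was 0.10 with SE 0.22. Supernatant against both cytokines (background 0.236%) gave 27 of the 127 and 2132 of all genes at that p. So the falls with both cytokines are not shown to exceed those with 1 cytokine or with supernatant.

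Listed genes outside the name rule were also counted in vitro. The counts are to be read against 4.77% of all genes called higher and 4.25% lower with both cytokines. With both cytokines, 4 of 48 DNA replication genes fell, Pole2 (-1.57), Orc6 (-1.31), Tipin (-0.71) and Dbf4 (-1.03), the last being the partner that activates Cdc7, and Orc5 rose by 1.66. Of 56 mitosis genes 5 fell, among them Cks2 (-1.02), Cks1b (-0.78), Fbxo5 (-1.41), Ckap2l (-1.39) and Ect2 (-0.83), and Mybl2 and Anapc7 rose by 1.15 and 1.22. Of 31 brakes and regulators 4 rose, Cdkn1a by 1.05 (adjusted p = 0.00825), Btg2 by 2.40, Gadd45b by 1.78 and Mdm2 by 0.96, and Skp2, which marks p27 for destruction, fell by 0.64. TNF alone called Gadd45b in that list (1.54, adjusted p = 0.0396). The medians with both cytokines were 0.0491 for the replication, -0.136 for the mitosis and -0.271 for the brakes list, beside 0.0165 for all genes. IFNG alone and supernatant called no gene of the 3 lists.

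**Figure D4:**
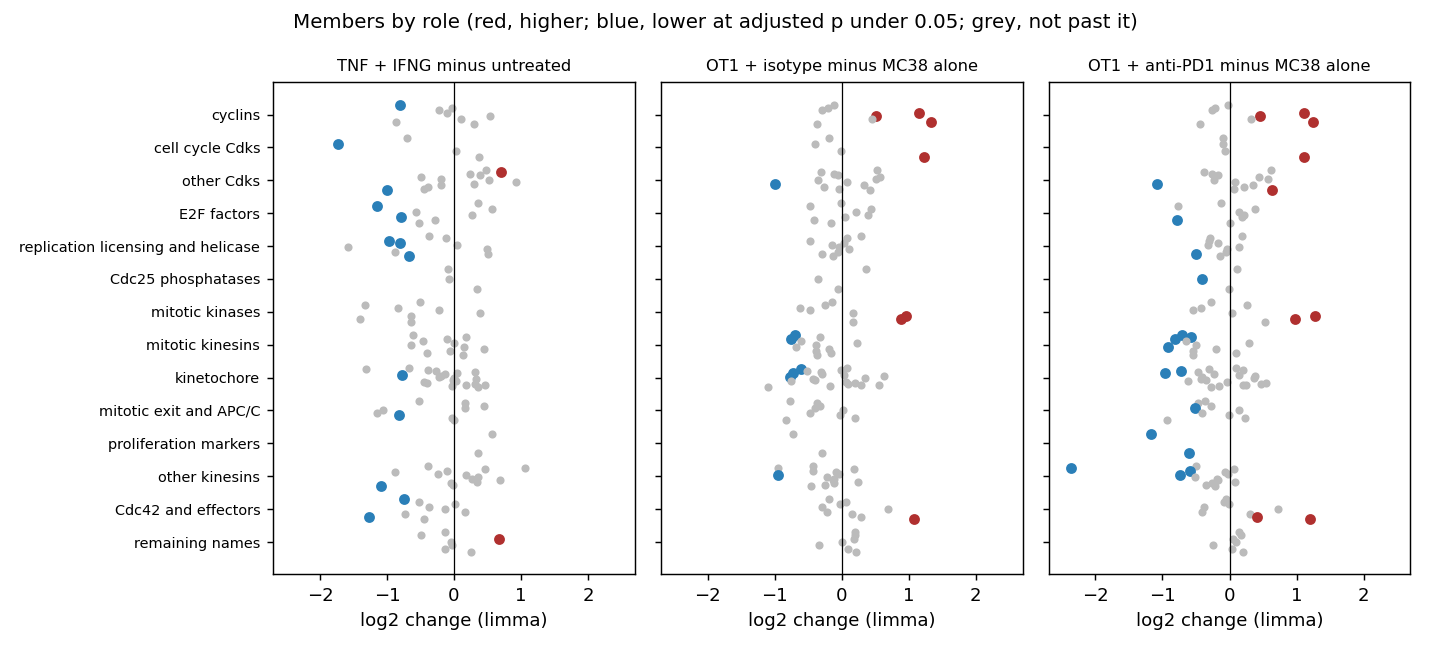
Log2 change of each of the 127 genes, by role, with both cytokines and in the 2 co-cultures; coloured points passed an adjusted p of 0.05. Cyclins and Polo-like kinases are among the co-culture rises, mitotic kinesins and kinetochore genes among the falls, and with both cytokines 13 falls spread over the replication, E2F, Cdk and other roles.

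Set side by side, some genes had opposite signs in the 2 tables. Cdk9 fell by 1.00 with both cytokines and rose by 0.63 with anti-PD1 co-culture. Cdc42se1 fell by 1.26 and rose by 0.40. Of 17 alternatives, the rise of Cdk9 held under 14 and that of Cdc42se1 under 7. The falls of Cdk9 and Cdc42se1 held under 9 and 14. Neither gene was called with isotype. Ccne1 had a change of -0.86 with both cytokines that missed the threshold (adjusted p = 0.0543), and it rose in both co-cultures. Ccnd1 showed changes of -0.10 with both cytokines, 0.09 with TNF, -0.40 with IFNG and 0.04 with supernatant, none of them called. Plk2 showed 0.28 with TNF and -0.94 with IFNG, also uncalled. Mki67 and Cenpf, which fell with anti-PD1, had changes of 0.57 and 0.05 with both cytokines. The tables were normalized apart and have other controls, so these differences between tables were not tested.

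**Figure D5:**
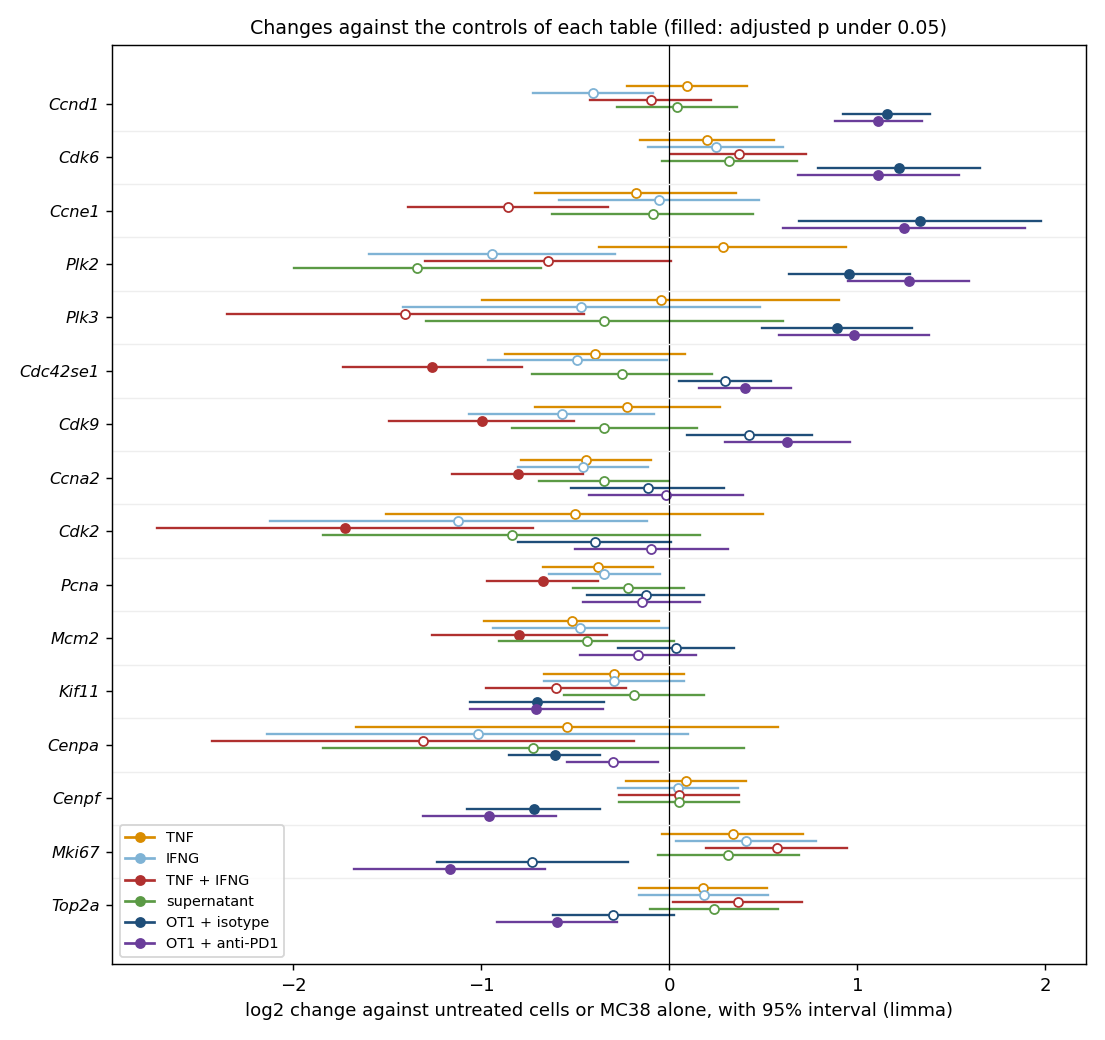
Log2 change with its 95% interval for 16 genes against untreated cells (4 treatments) or MC38 alone (2 co-cultures); filled points passed an adjusted p of 0.05. Ccnd1, Cdk6, Ccne1, Plk2 and Plk3 are filled to the right in the co-cultures only, and Ccna2, Cdk2, Pcna and Mcm2 are filled to the left with TNF and IFNG together.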

How the data were processed

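The deposited values are log2 CPM per gene, brought by the authors to one distribution within each table, as the values show (exact step not given in the sources used here). Per the submitters' processing notes, FastQC, cutadapt 1.7, HISAT2, featureCounts, Subread and limma were used with GRCm38 (mm10); strand and filters are not given in the sources used here. QuantSeq 3′ libraries were made, per the labels' protocols. Of 28 samples, 19 MC38 libraries have a column, each used, and 9 samples of OT1 T cells were not analysed here.

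Each table was fitted alone with limma 3.58.1 in R 4.3.3: group means, trended empirical Bayes, Benjamini-Hochberg adjustment over genes that reached log2 0 in at least 2 libraries in vitro or 3 in co-culture. The procedure was tested on simulated data. Depth was estimated from tied steps among low values and is approximate. The median 95% half-width of a log2 change was 0.589 in vitro and 0.489 in co-culture. T cell marker sums add 2 to the power of the log2 values. In every comparison the called genes are named, up to 15 a direction by p, with a fixed set described by role; from other lists, up to 5 a direction. The members and lists were chosen with earlier results of these data known. Gene positions are from GENCODE M21 (GRCm38), where all 127 names matched. The alternatives were a stricter filter, none, no trend, library weights, a replicate block, only the compared groups and each library left out; a centring and the joint removal of 2 libraries were chosen after seeing the data.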

Additional observations from a re-analysis of the deposited data

How the results depend on the processing

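No call changed direction under any alternative, and 15 of the 54 gene calls held under all of them. With TNF and IFNG the count of 15 became 4 without the trend, 8 with library weights and 1 when only those groups were fitted, and it ran from 0 to 29 when single libraries were left out. With IFNG alone the count of 0 became 1 under library weights and 9 when only those groups were fitted. Leaving out single libraries gave 0 to 1 with supernatant, 0 to 2 for TNF added to IFNG, 0 to 4 for IFNG added to TNF and 0 to 4 for supernatant against both cytokines. In the isotype co-culture the count of 14 became 25 with library weights and ran from 7 to 21 without single libraries. In the anti-PD1 co-culture the count of 25 became 15 with only the compared groups, 12 without both doubted libraries and ran from 9 to 23 without single libraries. A lone library left in an in vitro arm is assumed to vary like the other groups. Filters and the centring, the latter chosen after seeing the data, left every count within 1.5 times. The causes of these shifts were not tested, and the counts are not set beside the share of all genes called under each setting.

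Replicate numbers do not pair the samples: deviations of same-numbered libraries correlated from -0.287 to 0.0941 over 20 in vitro pairs and from -0.0541 to 0.109 over 9 co-culture pairs. With the replicate block the count was 8 with TNF and IFNG, 15 with isotype, 19 with anti-PD1 and 0 in every other comparison. Depth limits low genes such as Kif13b and Plk3, the latter at approximately 5 reads in the second library given both cytokines.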
